A study of Homo sapiens with 6 samples.

Results

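LINC loci are long intergenic non-protein-coding RNA genes, which carry a LINC symbol and a number because no function or coding neighbour had given them another name. Here they were taken as the loci of the deposited table that hold an annotated transcript, have lncRNA as their only transcript type, carry a LINC symbol and carry no antisense (-AS) or divergent transcript (-DT) name. Of 60835 loci in the table, 2013 met this description. A count of 12 or more in at least 3 of 6 libraries was then required, which 322 loci passed, and these are the LINC loci described below. Of the rest, 1203 had no count in any library and 488 had some counts but stayed under the minimum. When the 6 counts of a locus are ranked from the highest, the third was exactly 12 at the 16 loci just inside the minimum, which held 43 to 160 counts in all, and 11 at the 9 loci just outside it, which held 49 to 73.

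Long intergenic RNAs are made by RNA polymerase II, and most are capped, spliced and polyadenylated like messenger RNAs, yet encode no known protein. They are usually low in abundance and expressed in few cell types. Some act at a distance, for example by binding chromatin or other RNAs, while others act on neighbouring genes through their transcription or their promoter DNA. For this reason a LINC locus is often read together with the coding gene next to it.

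The libraries came from ARPE-19, an established wild-type cell line of human retinal pigment epithelium, the pigmented layer that supports the photoreceptors. RNA was sequenced after 72 h in normal glucose medium or in high glucose medium, with 3 libraries per group. The labels state neither the glucose concentrations nor whether separate cultures were used, so p-values reflect only how far these 6 libraries vary, and that variation may be technical. The libraries held 81616741 to 87748820 counts. A floor of 12 counts per library, the level below which a locus is treated as not measured, was 0.135 to 0.146 CPM (counts scaled to the library's TMM size). Of 15 retinal pigment epithelium markers, 12 passed the same minimum, but RPE65, TYR and TTR, which mark differentiated epithelium, were at or near 0 FPKM (fragments scaled to locus length and library size) in all 6 libraries. Their members moved in both directions. KRT8 and KRT18, keratins of simple epithelia, rose (log2 changes 1.66 and 1.88, edgeR adjusted p = 0.0152 and 0.00636), while BEST1, a chloride channel gene, and MERTK, a receptor for taking up photoreceptor debris, fell (log2 changes -2.2 and -1.23, adjusted p = 0.0113 and 0.0191). Summed, the list was at 105 to 193 FPKM in normal and 402 to 426 FPKM in high glucose, most of it from the keratins. The endothelial markers summed to 0.199 to 0.25 FPKM in normal and 0.0843 to 0.141 FPKM in high glucose, and the neural retina markers to 0.836 to 1.07 and 1.45 to 2.2 FPKM, with CRX at 0 in all libraries. The mesenchymal markers summed to 227 to 486 and 410 to 508 FPKM, nearly all of it VIM, while COL1A1 fell (log2 change -2.49, adjusted p = 0.0302). The blood sum of 22.8 to 31.3 and 28.9 to 37.9 FPKM came almost wholly from the row of CD68, a locus shared with SENP3 and EIF4A1, whereas PTPRC, the defining leukocyte marker, was at or near 0 and HBB at most 1.49 FPKM. The part of these marker levels in the results below was not tested.

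Over the LINC loci, the normal glucose libraries lay further apart than those of high glucose. The first principal component of log2 levels held 58.2% of the variance and separated the groups, with scores of -19.1 to -8.1 in normal and 12.3 to 14.4 in high glucose. The second held 15.6% and placed normal glucose library 3 at -15.3 against 0.8 to 8.4 for the other 5 libraries. By locus, normal glucose libraries 1, 2 and 3 lay a median of 0.422, 0.534 and 0.542 log2 from the mean of the other 2. In high glucose these distances were 0.287 to 0.353. Normal glucose library 2 was thus about as far off as library 3, and calls are also given with each library left out.

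Promoters of 6 LINC loci are shown first. LINC01173, LINC01134, LINC01978 and LINC02361 were chosen because their calls, described below, held with any 1 library left out. LINC01173 and LINC01134 are the loci with the lowest adjusted p among all 322 and both fell in high glucose. LINC02709 and LINC00513 fell as well and were chosen because they hold matches to TGANTCA, with any base at N. That pattern takes in the AP-1 motif, TGAGTCA or TGACTCA, which the JUN and FOS family binds. It also takes in TGAATCA and TGATTCA, which differ from that motif. LINC01978 rose, and LINC02361 was measured above the floor in high glucose only. The count minimum let LINC02361 pass through that group alone, so a difference was built into its choice and its call is no test. Each window runs from 250 bases before to 50 bases after the start of the RefSeq transcript (RefSeq table on GRCh38.p14), 5′ to 3′ on the strand of the gene, and capitals mark matches to the searched motifs.
LINC01173: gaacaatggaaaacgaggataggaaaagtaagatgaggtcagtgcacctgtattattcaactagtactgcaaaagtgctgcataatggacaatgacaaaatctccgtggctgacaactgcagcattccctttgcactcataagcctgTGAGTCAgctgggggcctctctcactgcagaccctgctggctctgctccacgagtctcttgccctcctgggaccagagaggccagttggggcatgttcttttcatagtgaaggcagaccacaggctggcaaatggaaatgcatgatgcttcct
LINC01134: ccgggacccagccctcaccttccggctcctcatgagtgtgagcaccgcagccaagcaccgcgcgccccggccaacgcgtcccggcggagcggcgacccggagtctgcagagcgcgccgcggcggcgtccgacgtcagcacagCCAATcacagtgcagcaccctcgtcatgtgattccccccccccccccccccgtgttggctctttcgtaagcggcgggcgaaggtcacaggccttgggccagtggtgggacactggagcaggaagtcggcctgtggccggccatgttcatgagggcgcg
LINC02709: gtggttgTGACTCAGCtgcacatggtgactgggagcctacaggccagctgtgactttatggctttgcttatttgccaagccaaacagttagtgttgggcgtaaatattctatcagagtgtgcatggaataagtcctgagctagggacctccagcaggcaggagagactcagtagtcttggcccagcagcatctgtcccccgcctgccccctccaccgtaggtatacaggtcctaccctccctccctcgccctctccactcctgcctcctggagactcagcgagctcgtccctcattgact
LINC00513: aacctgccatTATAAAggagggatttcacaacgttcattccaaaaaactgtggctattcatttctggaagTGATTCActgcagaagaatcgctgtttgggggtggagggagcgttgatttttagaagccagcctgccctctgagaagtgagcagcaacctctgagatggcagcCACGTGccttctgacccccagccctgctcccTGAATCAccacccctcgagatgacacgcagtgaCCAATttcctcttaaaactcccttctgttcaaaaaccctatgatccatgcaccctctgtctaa
LINC01978: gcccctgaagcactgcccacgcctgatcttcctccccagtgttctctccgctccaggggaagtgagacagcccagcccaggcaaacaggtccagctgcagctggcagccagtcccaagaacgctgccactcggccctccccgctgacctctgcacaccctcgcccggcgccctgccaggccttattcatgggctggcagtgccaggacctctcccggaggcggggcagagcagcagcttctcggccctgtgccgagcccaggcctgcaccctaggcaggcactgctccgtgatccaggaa
LINC02361: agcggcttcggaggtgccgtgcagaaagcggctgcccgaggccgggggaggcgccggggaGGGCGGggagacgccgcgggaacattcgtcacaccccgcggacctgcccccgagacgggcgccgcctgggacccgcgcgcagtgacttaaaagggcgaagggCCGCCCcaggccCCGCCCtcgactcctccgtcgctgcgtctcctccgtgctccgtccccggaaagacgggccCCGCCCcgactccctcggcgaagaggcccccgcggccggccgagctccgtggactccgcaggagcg
The windows lie at chr2:234682418-234682717 on the plus strand (LINC01173), chr1:3900154-3900453 plus (LINC01134), chr11:9759484-9759783 minus (LINC02709), chr7:130913214-130913513 plus (LINC00513), chr17:79919107-79919406 plus (LINC01978) and chr12:132189646-132189945 minus (LINC02361). Their GC content was 50.0%, 70.7%, 56.0%, 49.3%, 67.7% and 76.3%. The LINC01173 window holds 1 match to TGANTCA, in the AP-1 form TGAGTCA, starting at base 148. The LINC00513 window, which starts 59743 bases inside the deposited locus, holds 2 matches to it, at bases 71 and 205, besides a TATAAA at base 11, a CACGTG and a CCAAT at base 238. In LINC02709 a TGANTCA match at base 8 overlaps a match to TGACNNNGC, the antioxidant response core, at the same base. LINC01134 holds 1 CCAAT at base 143, LINC02361 holds 4 GGGCGG boxes on either strand, the binding sequence of SP1, and LINC01978 holds none of the searched motifs. LINC01134 starts head to head with the coding gene C1orf174, and the windows of the pair share 231 bases.

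A window that touches the deposited locus was found for 189 of the 322 LINC loci. TGANTCA, which is wider than the AP-1 motif and was searched on both strands, was present in 26 of them (13.8%). It was present in 7.76% of 27305 RefSeq promoter windows of the same length. By the call described in the next paragraph, it was present in 6 of 14 windows of loci that fell (LINC00513, LINC02709, LINC02725, LINC00310, LINC01173 and LINC01363, of which LINC02725 is named after its values were seen), in 1 of 26 of loci that rose (LINC01271) and in 12.8% of 149 windows of loci that were not called. GGGCGG was present in 1 of the 14, in 11 of the 26, in 32.2% of the 149 and in 44.6% of all windows. Median GC content was 45.7% for loci that fell, 59.0% for loci that rose, 53.3% for loci that were not called and 58.3% for all windows, and the median number of CpG pairs was 2.5, 11.5, 7 and 14. The TGANTCA and GGGCGG counts moved along with base composition, and the part of either in the response was not tested. Windows need not lie at the start of the deposited locus. The RefSeq transcript starts of LINC00513, LINC00310, LINC02392 and LINC00571 lie 59743, 22952, 12423 and 207026 bases inside it. A limit of 1 kb between transcript start and locus start was set after the data were seen. Within it, TGANTCA was present in 4 of 9 loci that fell, 1 of 19 that rose and 13 of 113 that were not called. LINC01363 and LINC00622 among the loci that fell, and LINC02872 and LINC02361 among those that rose, passed the count minimum through a single group. Their direction was built into that choice, and they enter the counts with and without the 1 kb limit. Of these, LINC01363 alone holds a TGANTCA match. A match describes letters in a window and is not a bound site.

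The study's comparison asks which loci change between normal and high glucose. At an edgeR adjusted p under 0.05, referred to as called, 36 of the 322 LINC loci rose in high glucose and 24 fell. Called loci made up 18.6% of the LINC loci, against 19.6% of all 25025 tested loci, 10.3% of 3836 other lncRNA loci with the same count minimum and 25.5% of 13786 tested loci with a protein-coding transcript (13.1% higher, 12.4% lower). Those that rose made up 11.2% of the LINC loci against 9.75% of all tested loci and 5.68% of the other lncRNA loci, and those that fell 7.45% against 9.86% and 4.59%. The share of called LINC loci was therefore near that of the whole table. A difference of at least 2-fold was reached by 33 of the called loci that rose (10.2% of the LINC loci; 5.33% of all tested loci) and 23 of those that fell (7.14%; 5.13%). In these bulk libraries a change in the number of cells that make a transcript and a change in its RNA per cell cannot be told apart.

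Over the 322 loci the median log2 change, high minus normal glucose, was 0.27, with 189 loci above 0 and 133 below, while the median over all tested loci was -0.004. It was 0.09 over the other lncRNA loci with the same count minimum. The change was above 0 at 58.7% of the LINC loci and at 49.8% of all tested loci. Among called loci the median was 1.72 for those that rose and -2.63 for those that fell, or 1.63 and -2.56 with the 3 loci that had a whole group at 0 set to their lower bounds. The 3 libraries of a group did not overlap those of the other at 138 LINC loci (42.9%), against 42.3% of all tested loci, and all 60 called loci are among the 138. Summed over the LINC loci, the level was 884, 901 and 856 CPM in normal and 1000, 936 and 955 CPM in high glucose, or 0.0844% to 0.0883% and 0.0946% to 0.103% of all counts. In normal glucose 18 to 23 of the loci were at 0 in a library, and in high glucose 8 to 10. The count minimum lets a locus pass through a single group, which 12 loci did through high glucose alone and 6 through normal glucose alone. Of these, 8 were called, LINC02361, LINC02696 and LINC02872 higher and LINC00491, LINC01151, LINC00622, LINC01363 and LINC01811 lower. A difference was built into how these 8 were chosen, so they are described below without a test. Of the 189 loci at 12 counts or more in all 6 libraries, a set that leaves out loci near 0 in either group, 26 rose and 16 fell, with a median log2 change of 0.18.

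Most LINC loci were low. The median of their mean levels was 0.179 FPKM (quartiles 0.0801 and 0.524), against 0.288 FPKM for other lncRNA loci and 3.42 FPKM for coding loci. On the CPM scale 195 LINC loci averaged under 1 CPM, of which 15 rose and 10 fell, while 6.97% of all loci in that range were called. Between 1 and 10 CPM there were 105 LINC loci, of which 19 rose and 12 fell (24.1% of all loci in that range were called). The 22 LINC loci at 10 CPM or more held 2 that rose and 2 that fell (28.6% of all loci in that range were called). The 8 most abundant on the CPM scale held 32.1% of the summed level of the LINC loci.

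**Figure D1:**
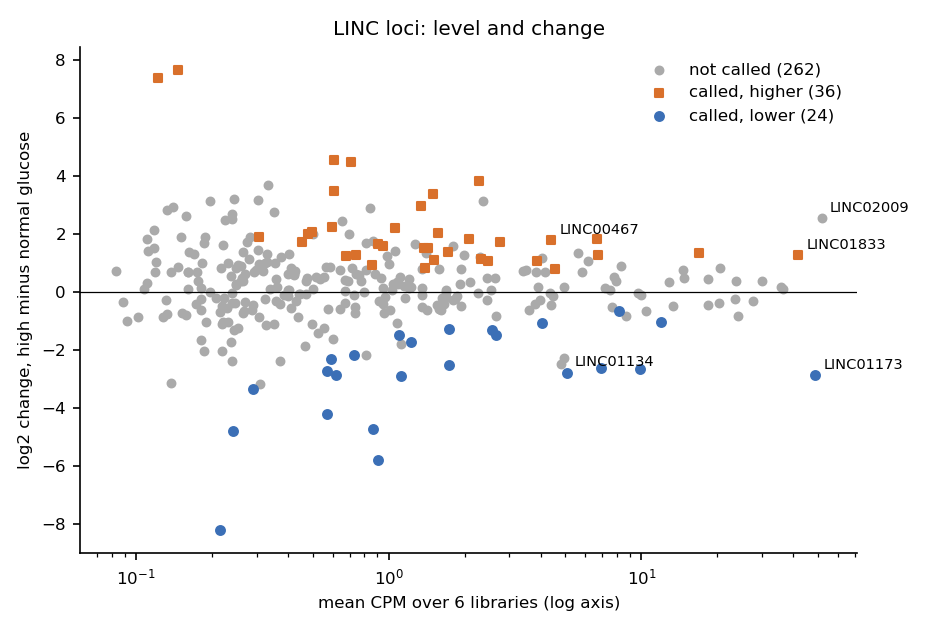
Each point is 1 of the 322 LINC loci, with its mean CPM over 6 libraries on a log axis (x) and its edgeR log2 change, high minus normal glucose (y). The 36 loci called higher and 24 called lower spread over the whole range of levels, and LINC01173 stands out as an abundant locus that fell, while LINC02009, the most abundant, was not called.

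The calls depended on which libraries entered. With 1 library left out, the number of called LINC loci was 29, 33 and 89 without normal glucose libraries 1, 2 and 3, and 12, 16 and 14 without high glucose libraries 1, 2 and 3. Of the 60 called loci, 55 were still called without normal glucose library 3, and 34 further loci were called only after it was left out. 10 of the 60 were called in every one of the 6 omissions. Of these 10, LINC01173, LINC01134 and LINC02019 fell, and LINC01978, LINC02361, LINC01152, LINC00327, LINC01266, LINC00957 and LINC01605 rose. LINC02361 is among the 8 loci that passed the count minimum through a single group.

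LINC01173 (chr2:234682265-234727269, plus strand) fell most among LINC loci at 10 CPM or more. Its level was 81.7, 107 and 67.2 CPM in the normal glucose libraries and 10.5, 12.9 and 12.1 CPM in the high glucose libraries. The groups lay far apart, and the log2 change was -2.85 (SE 0.198, edgeR adjusted p = 0.00138). It was the second most abundant locus on the CPM scale and fell from a mean of 10.7 to 1.53 FPKM. An assembled locus without annotated transcript lies inside it on the minus strand (chr2:234682793-234689565), at 12.5, 10.8 and 6.57 CPM in normal and 0.908, 0.593 and 1.14 CPM in high glucose. That inner locus fell too, by 3.5 on the log2 scale (SE 0.356, adjusted p = 0.00274). Since nothing states that strand was used in counting, reads of the pair cannot be told apart.

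LINC01134 (chr1:3900352-3914652, plus) showed the same pattern at a lower level, with 7.6, 9.39 and 9.49 CPM in normal and 1.39, 1.04 and 1.46 CPM in high glucose. Its libraries were tight in both groups, and its log2 change was -2.77 (SE 0.221, edgeR adjusted p = 0.00165). An unannotated locus inside it, without a strand, also fell (log2 change -2.21, SE 0.371, adjusted p = 0.0101). LINC02019 (chr3:50669989-50672048, plus) went from 1.02, 2.74 and 2.15 CPM to 0.336, 0.262 and 0.194 CPM, a log2 change of -2.89 (SE 0.453, adjusted p = 0.00834). The high glucose libraries of LINC02019 were close to the floor of measurement.

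LINC00520 (chr14:55781132-55796731, minus), an RNA studied in tumours, was at 12.2, 30.4 and 8.37 CPM in normal and at 2.73, 3.03 and 2.34 CPM in high glucose. Normal glucose library 2 was well above the other libraries of its group, yet all 3 exceeded every high glucose library (log2 change -2.65, SE 0.478, edgeR adjusted p = 0.0125). Without any 1 of the high glucose libraries its adjusted p was 0.0559 to 0.0613. LINC02084 (chr3:27712910-27714005, plus), which lies 1943 bases from EOMES, a T-box transcription factor gene, was at 1.4, 1.45 and 0.409 CPM in normal and 0.258, 0.137 and 0.0486 CPM in high glucose. It fell by 2.86 on the log2 scale (SE 0.718, adjusted p = 0.0337) and stayed called in 1 of the 6 omissions, that of normal glucose library 3.

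Several loci were nearly silent in high glucose. LINC02392 went from 2.86, 1.42 and 0.734 CPM to 0, 0 and 0.194 CPM (log2 change -4.7, SE 1.25, edgeR adjusted p = 0.0404). High glucose library 3 alone sets the size of that change, which was -10.18 without it. LINC02552 went from 0.924, 1.32 and 0.746 CPM to 0.291, 0.057 and 0.0971 CPM (log2 change -2.73, SE 0.63, adjusted p = 0.0261). Both calls were lost in 4 of the 6 omissions, with adjusted p of up to 0.125 and 0.0969. In high glucose only library 3 of LINC02392 and library 1 of LINC02552 were above the floor. The choice of both loci therefore favoured a difference, and their p-values carry that limit.

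The 5 called loci that passed the minimum through normal glucose alone were under the floor in every high glucose library, so their folds are lower bounds against the 12-count floor per library. LINC00491 (chr5:102604220-102671765, minus) was at 0.173, 0.478 and 0.637 CPM in normal and at 0 in all 3 high glucose libraries, at least 3.09-fold lower. LINC01811, a locus spanning most of a megabase on chromosome 3, went from 0.404, 0.781 and 2.07 CPM to 0, 0.114 and 0.0607 CPM, at least 7.81-fold lower. An unannotated locus inside LINC01811 fell by 3.93 on the log2 scale (SE 0.681, edgeR adjusted p = 0.0111). LINC01151 (0.612, 2.83 and 1.89 CPM in normal glucose), LINC00622 (0.37, 0.804 and 0.228 CPM) and LINC01363 (0.323, 0.629 and 0.637 CPM) were at least 12.8-fold, 3.36-fold and 3.82-fold lower.

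Among loci that rose, LINC01978 (chr17:79919357-79925462, plus) went from 0.485, 0.0466 and 0.361 CPM to 4.24, 4.72 and 3.8 CPM, a log2 change of 3.83 (SE 0.666, edgeR adjusted p = 0.0112). LINC01979 (chr17:79915252-79926725, minus) spans LINC01978 on the opposite strand, and it rose from 0.0693, 0.396 and 0.156 CPM to 0.751, 1.17 and 1.04 CPM (log2 change 2.25, SE 0.617, adjusted p = 0.0442). The call of LINC01979 held in 1 omission. Without strand in the counting, reads of this pair cannot be told apart. LINC02361 (chr12:132186735-132189695, minus), which passed the minimum through high glucose alone, was at 0.0924, 0.0816 and 0.12 CPM in normal glucose, under the floor in all 3 libraries, and at 0.975, 1.32 and 1.06 CPM in high glucose, at least 7.93-fold higher.

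LINC01152 (chr17:72030291-72041310, plus) lies 79.7 kb from SOX9, a transcription factor gene of cartilage and other developing tissues. Its level was 0.266, 0.396 and 0.241 CPM in normal and 2.94, 2.62 and 1.55 CPM in high glucose, and it rose by 2.97 on the log2 scale (SE 0.369, edgeR adjusted p = 0.00451). SOX9 itself had a log2 change of 0.9 (SE 0.311) that was not called (adjusted p = 0.085). LINC00327 (chr13:23465776-23487712, plus) went from 0.462, 0.233 and 0.433 CPM to 1.78, 1.5 and 1.97 CPM (log2 change 2.22, SE 0.344, adjusted p = 0.00816). LINC00957 (chr7:44039171-44042306, plus) and LINC01605 were chosen after their values were seen, as calls that held in all omissions. LINC00957 rose from 1.12, 0.618 and 0.962 CPM to 3.26, 3.38 and 3.1 CPM (log2 change 1.85, SE 0.277, adjusted p = 0.00741). LINC01605, whose locus also holds AC091182, rose from 2.29, 2.74 and 3.68 CPM to 9.16, 10.8 and 11.3 CPM (log2 change 1.84, SE 0.226, adjusted p = 0.00436).

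Another set of LINC loci was nearly silent in normal glucose. LINC02427 (chr4:184503271-184537626, minus) was at 0, 0 and 0.144 CPM there and at 1.45, 0.866 and 1.18 CPM in high glucose (log2 change 4.57, SE 1.14, edgeR adjusted p = 0.0325). LINC02873 (chr11:130672956-130717352, plus) was at 0.173, 0 and 0 CPM and at 1.52, 1.12 and 1.42 CPM (log2 change 4.5, SE 1.13, adjusted p = 0.0335). LINC00324 (chr17:8220642-8224043, minus) was at 0.243, 0 and 0.541 CPM and at 2.65, 2.55 and 3 CPM (log2 change 3.38, SE 0.963, adjusted p = 0.0489). In each of these 3 loci the libraries of high glucose were close together and above every normal glucose library, but the calls were lost in 4 or 5 of the 6 omissions, with adjusted p of up to 0.105, 0.101 and 0.136. The fitted size of the first 2 rests on 1 normal glucose library at about the floor: without library 3 the change of LINC02427 was 9.65, and without library 1 that of LINC02873 was 9.86. No other normal glucose library of these 2 loci reached the count minimum, which all 3 high glucose libraries did. Their choice therefore favoured a difference, and their p-values carry that limit. LINC02696 and LINC02872, which passed the minimum through high glucose alone, had no count in normal glucose and were at 0.179, 0.217 and 0.486 CPM and at 0.28, 0.16 and 0.291 CPM in high glucose. Against the 12-count floor they were at least 2.09-fold and at least 1.73-fold higher.

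**Figure D2:**
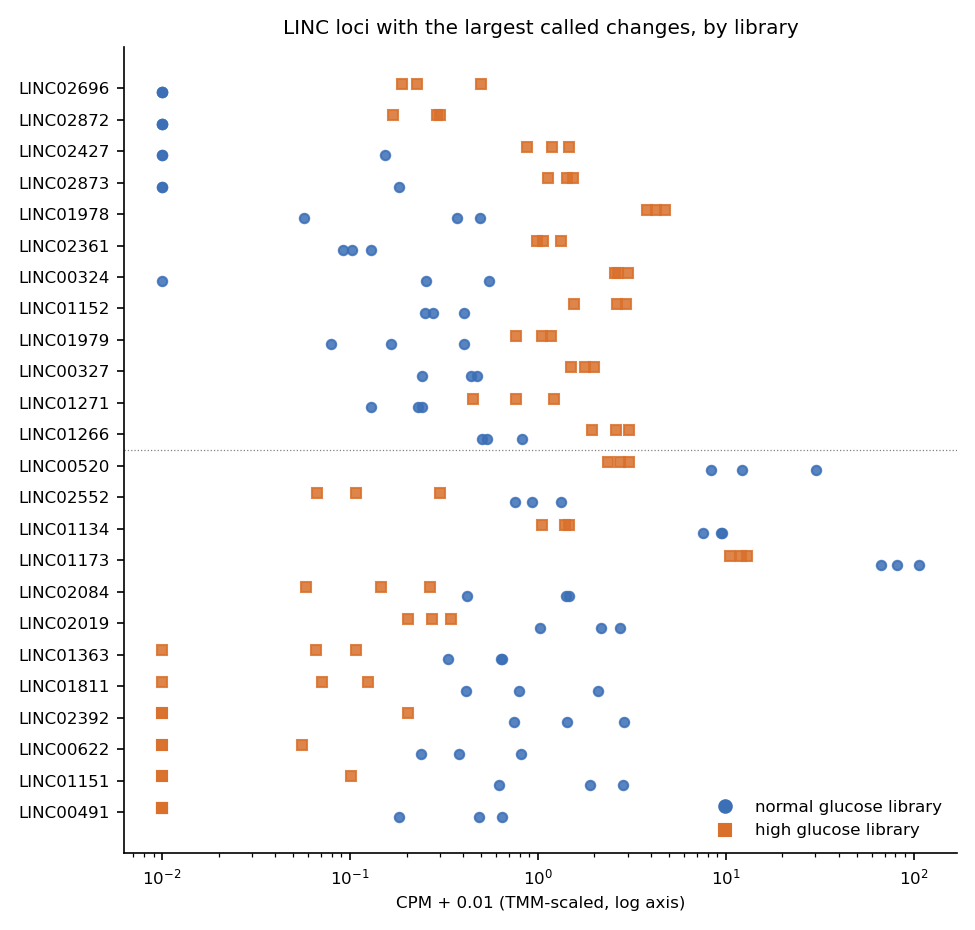
Levels of the 24 called LINC loci with the largest changes (12 that rose above the dotted line, 12 that fell under it) in each of the 6 libraries, as CPM plus 0.01 on a log axis, so that a library at 0 sits at the left edge. Groups do not overlap in any row, and LINC01173 is the single row with all libraries above 10 CPM.

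The most abundant LINC loci by length-scaled level were LINC01833, LINC00294, LINC02009, LINC01173, LINC02154, LINC00968, LINC00205 and LINC00857. Of these 8, LINC01173 fell and LINC01833 rose. LINC01833 (chr2:44921077-44939199, minus) was at 21, 16.7 and 34.9 CPM in normal and at 61, 59.5 and 56.8 CPM in high glucose (log2 change 1.29, SE 0.263, edgeR adjusted p = 0.0179), and its mean went from 5 to 12.6 FPKM. Its call was lost without normal glucose library 1 (adjusted p = 0.0635) and without each high glucose library (0.0623 to 0.0677).

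LINC02009 (chr3:46416524-46423591, minus) had the highest mean CPM of all LINC loci. Its 3 high glucose libraries were at 92.4, 83.7 and 89.1 CPM, and its normal glucose libraries at 7.22, 3.83 and 34.1 CPM. The groups did not overlap, but normal glucose library 3 was several times above libraries 1 and 2, and the log2 change of 2.56 (SE 0.748) missed the threshold (edgeR adjusted p = 0.0532). Without normal glucose library 3 the adjusted p was 0.00061. CCRL2, a chemokine-binding receptor gene 7000 bases away, rose by a log2 change of 1.26 (SE 0.348, adjusted p = 0.0444).

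The other 5 abundant loci were not called. LINC00294 was at 27.6, 23.8 and 26.7 CPM in normal and at 30.2, 33.5 and 37.5 CPM in high glucose, without overlap (log2 change 0.37, SE 0.131, edgeR adjusted p = 0.0896). LINC00205, which starts 151 bases from POFUT2, varied within both groups, at 43.8, 45.9 and 11.1 CPM and at 62.8, 20 and 31 CPM (adjusted p = 0.865). LINC00968, LINC02154 and LINC00857 overlapped between groups, with log2 changes of -0.29, -0.66 and -0.01 (adjusted p = 0.323, 0.224 and 0.99).

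A list of 17 LINC genes that have been studied elsewhere was also followed. Of these 7 were among the LINC loci described here, 5 sat in loci that also hold another transcript type (LINC-PINT, LINC00461, LINC00511, LINC00472 and LINC00963), 3 were under the count minimum (LINC-ROR, LINC00460 and LINC01116) and LINC00473 and LINC00673 were not analysed here. Of the 7, 1 rose (LINC00467), 2 fell (LINC00520 and LINC01133) and 4 were not called. LINC00467 (chr1:211382736-211435333, plus) went from 1.4, 3.2 and 1.26 CPM to 6.75, 6.62 and 7.1 CPM, a log2 change of 1.8 (SE 0.374, edgeR adjusted p = 0.0188). LINC01133 (chr1:159958035-159984750, plus) went from 5.52, 3.95 and 6.94 CPM to 2.65, 3.04 and 2.1 CPM (log2 change -1.07, SE 0.27, adjusted p = 0.0335), and an unannotated locus inside it fell as well (log2 change -1.72, SE 0.446, adjusted p = 0.0374). Both calls held in 2 of the 6 omissions.

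The 4 that were not called differed in how they varied. LINC00662 was at 33.5, 40.1 and 18.6 CPM in normal and at 19.4, 17 and 15.9 CPM in high glucose, so that normal glucose library 3 alone lay within the range of the other group. Its log2 change was -0.82 (SE 0.273, edgeR adjusted p = 0.0785), and without that library the adjusted p was 0.00309. LINC00665 was at 20.4, 18.9 and 21.9 CPM and at 29.5, 23.6 and 27.1 CPM, without overlap (log2 change 0.39, SE 0.136, adjusted p = 0.0877; 0.0499 without normal glucose library 3). LINC01503 was at 4.48, 4 and 4.57 CPM and at 2.56, 2.07 and 3.84 CPM (log2 change -0.62, SE 0.265, adjusted p = 0.144). LINC00941, counted in a locus with AC010198, had groups that overlapped, at 41.6, 22.4 and 40.6 CPM and at 35.6, 40.3 and 37.4 CPM (log2 change 0.12, SE 0.234, adjusted p = 0.768).

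Each LINC locus was then set beside its nearest coding locus among those tested, by the gap between their edges. The 322 loci had 299 such neighbours, since 21 neighbours were shared by 44 LINC loci, and the median gap was 16.8 kb. In spite of the name, 42 of the LINC loci overlapped a coding locus, 35 of them on the opposite strand. A further 63 lay within 5 kb, 153 between 5 and 100 kb, and 64 beyond 100 kb. By orientation, 146 lay on the same strand as the neighbour, 84 head to head and 50 tail to tail. Of the nearest coding loci, 27.4% were called (13.4% higher, 14% lower). Counting every tested locus, coding or not, 140 of the 322 LINC loci overlapped another, among them 28 of the 60 called. LINC01152 overlaps the locus of ROCR and SOX9-AS1, LINC01833 loci of AC012354, LINC02709 that of SBF2-AS1 and LINC01135 that of LINC02777. Nothing states that strand was used in counting, so reads of such overlapping loci cannot be told apart.

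Both loci were called in 17 pairs, in the same direction in 12 (6 pairs higher, 6 lower) and in opposite directions in 5. In 43 pairs the LINC locus alone was called, in 73 the coding locus alone, and in 189 neither. The nearest coding locus was called for 28.3% of called LINC loci and for 27.9% of the 262 that were not called. Over the 322 pairs the log2 changes had a Spearman correlation of 0.21 and a Pearson correlation of 0.18, given as a description because all pairs share the same libraries and some share a neighbour. By gap, Spearman's rho was 0.05 for pairs that overlap, 0.22 up to 5 kb, 0.26 from 5 to 100 kb and 0.1 beyond. For 3836 other lncRNA loci and their nearest coding loci it was 0.31.

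**Figure D3:**
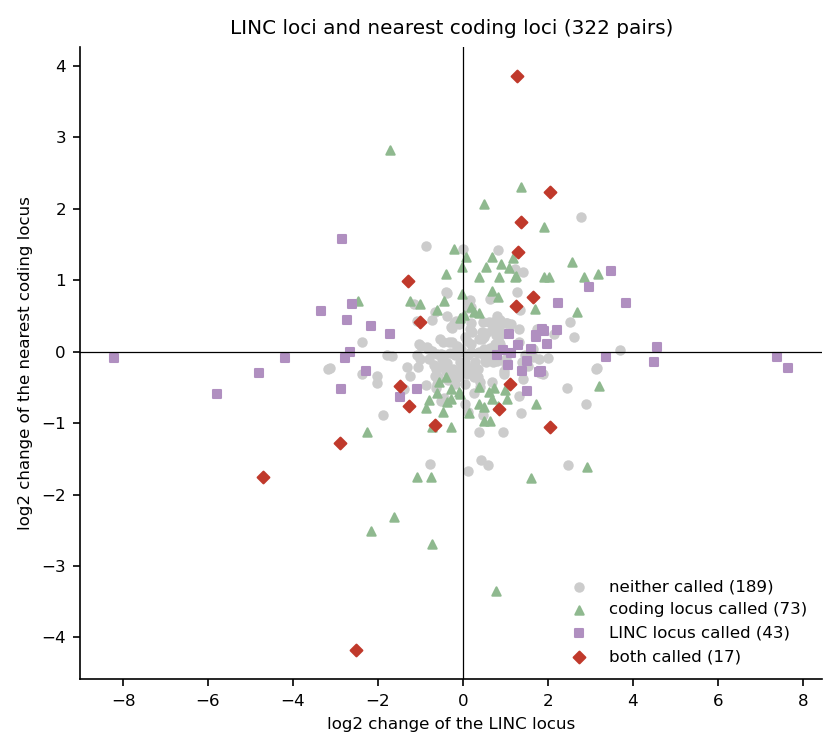
Log2 change, high minus normal glucose, of each of the 322 LINC loci (x) and of its nearest coding locus (y), marked by which of the pair was called. The 43 pairs with only the LINC locus called lie mostly along the horizontal line at 0, and the 17 pairs with both called are split into 12 in the same and 5 in opposite directions.

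Among pairs that rose together, LINC01833 lies head to head with SIX3 at a gap of 2502 bases. SIX3 encodes a homeodomain factor of eye and forebrain development, and its locus also holds AC012354. It went from 24.7, 10.2 and 16.8 CPM to 44.1, 44.6 and 47.5 CPM (log2 change 1.4, SE 0.296, edgeR adjusted p = 0.0201), beside 1.29 for LINC01833. LINC01135 (chr1:58785128-58901109, plus) starts 1080 bases from JUN, which encodes an AP-1 subunit, also head to head. LINC01135 rose from 0.347, 0.35 and 0.613 CPM to 1.24, 1.98 and 0.911 CPM (log2 change 1.66, SE 0.416, adjusted p = 0.0334), and JUN rose from 228, 204 and 200 CPM to 378, 363 and 340 CPM (log2 change 0.77, SE 0.103, adjusted p = 0.00532). The call of LINC01135 was lost without every library except normal glucose library 3.

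LINC01266 (chr3:536062-846561, plus) rose from 0.497, 0.524 and 0.818 CPM to 3.06, 2.58 and 1.93 CPM (log2 change 2.04, SE 0.317, edgeR adjusted p = 0.00816). Its nearest coding gene, CNTN6, a neural cell adhesion gene 246 kb away, rose from 0.116, 0.175 and 0.361 CPM to 1.1, 1.26 and 0.692 CPM (log2 change 2.23, SE 0.51, adjusted p = 0.0255). LINC02298 rose beside GPR132, a G protein-coupled receptor gene, with log2 changes of 1.27 and 3.86 (SE 0.349 and 0.876, adjusted p = 0.044 and 0.0247). LINC01191 rose beside ACTR3, which encodes a subunit of the actin-nucleating Arp2/3 complex, with log2 changes of 1.25 and 0.64 (SE 0.339 and 0.144, adjusted p = 0.0429 and 0.0238). The LINC02298 and LINC01191 calls held only without normal glucose library 3.

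Among pairs that fell together, LINC02709 (chr11:9754770-9759533, minus) ends 1776 bases from the end of SWAP70, a gene of actin and Rac signalling. LINC02709 fell from 2.85, 1.88 and 2.65 CPM to 1.08, 1.04 and 0.911 CPM (edgeR log2 change -1.28, SE 0.254, adjusted p = 0.0163), and SWAP70 from 97.6, 108 and 105 CPM to 62.3, 64.2 and 57.4 CPM (log2 change -0.76, SE 0.101, adjusted p = 0.00543). LINC02019 lies 2878 bases from DOCK3, a guanine nucleotide exchange factor gene whose locus also holds MIR4787, and DOCK3 fell from 112, 119 and 59.5 CPM to 43.4, 38.5 and 37.9 CPM (log2 change -1.28, SE 0.254, adjusted p = 0.0165). LINC00265 fell by 0.65 and RALA, a small GTPase gene 27 kb away, by 1.03 on the log2 scale (SE 0.144 and 0.111, adjusted p = 0.0233 and 0.00309). LINC02392 fell beside ATP2B1, a plasma membrane calcium pump gene 625 kb away, whose log2 change was -1.75 (SE 0.24, adjusted p = 0.00582).

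LINC00310 (chr21:34157724-34190244, plus) lies within the locus of MRPS6 and SLC5A3 on the same strand. MRPS6 encodes a mitochondrial ribosomal protein, and SLC5A3 the sodium-coupled importer of the osmolyte myo-inositol. LINC00310 fell from 1.56, 3.47 and 3.8 CPM to 0.65, 0.615 and 0.267 CPM (log2 change -2.52, SE 0.477, edgeR adjusted p = 0.0143). The coding locus fell from 1563, 2165 and 3029 CPM to 128, 116 and 129 CPM (log2 change -4.18, SE 0.257, adjusted p = 0.001). Since the 2 loci overlap on the same strand and the level of the host is far higher, how the authors divided reads between them is uncertain.

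In 5 pairs the loci moved in opposite directions. LINC00106 (chrX:1396016-1400493, plus) lies tail to tail with ASMTL, an acetylserotonin methyltransferase-like gene, at a gap of 2645 bases. LINC00106 fell from 4.08, 3.99 and 2.9 CPM to 1.5, 1.52 and 1.42 CPM (log2 change -1.3, SE 0.223, edgeR adjusted p = 0.0108), while ASMTL rose from 22.6, 20.8 and 20.6 CPM to 43.5, 42 and 41.4 CPM (log2 change 0.99, SE 0.107, adjusted p = 0.00314). A short unannotated locus inside LINC00106 was not called (log2 change -0.05, SE 0.332, adjusted p = 0.934). LINC02846 (chr9:136107808-136109424, minus) lies 491 bases from TMEM250 on the same strand. It rose from 0.843, 1.1 and 0.938 CPM to 2.2, 1.74 and 2.25 CPM (log2 change 1.1, SE 0.244, adjusted p = 0.0229), while TMEM250 fell from 55.9, 53.8 and 61.3 CPM to 39.9, 41.8 and 43 CPM (log2 change -0.46, SE 0.106, adjusted p = 0.0264).

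LINC00271 overlaps AHI1, a gene of the primary cilium, on the opposite strand. LINC00271 rose from 0.993, 0.921 and 1.08 CPM to 1.89, 1.8 and 1.68 CPM (edgeR log2 change 0.84, SE 0.226, adjusted p = 0.0413), and AHI1 fell from 57.3, 53.5 and 71.9 CPM to 34.7, 36.4 and 33.8 CPM (log2 change -0.8, SE 0.138, adjusted p = 0.0109). LINC01271 rose by a log2 change of 2.06 (SE 0.515, adjusted p = 0.0331), while CEBPB, a transcription factor gene 118 kb away, fell by 1.06 on the log2 scale (SE 0.234, adjusted p = 0.0223). The LINC01271 call was lost in each of the 6 omissions (adjusted p 0.0511 to 0.13), whereas an unannotated locus inside it rose by 2.3 on the log2 scale (SE 0.325, adjusted p = 0.00625). LINC00513 (chr7:130853720-130930680, plus) fell from 19.5, 17.4 and 11.3 CPM to 7.49, 6.85 and 9.52 CPM (log2 change -1.01, SE 0.241, adjusted p = 0.0285). It overlaps loci that hold LINC-PINT and MIR29A, and its nearest coding locus, that of COPG2 and TSGA13, rose by a log2 change of 0.42 (SE 0.117, adjusted p = 0.0445). Without any 1 of the high glucose libraries, the calls of LINC00106, LINC02846, LINC00271 and LINC00513, and those of LINC02709, LINC00265 and LINC00310 above, were lost (adjusted p 0.0503 to 0.134).

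**Figure D4:**
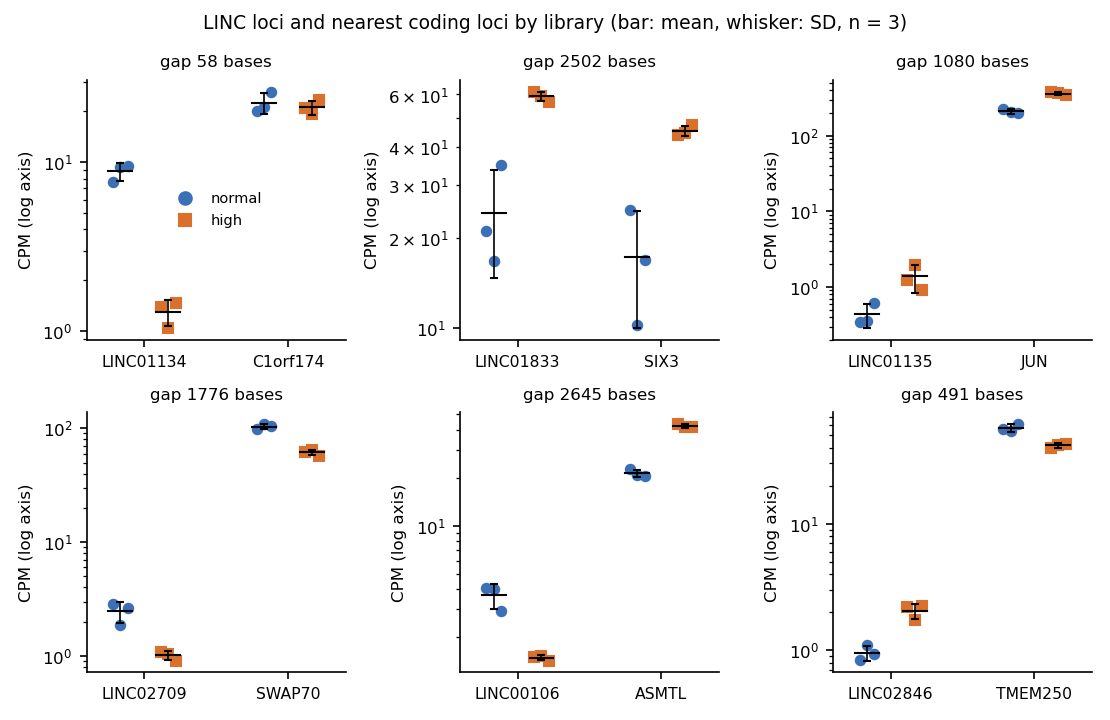
CPM (log axis) of 6 LINC loci and their nearest coding loci in the 3 normal and 3 high glucose libraries, with bars for means and whiskers for SD (n = 3). LINC01134 fell while C1orf174 was not called, the pairs with SIX3, JUN and SWAP70 moved together, and the pairs with ASMTL and TMEM250 moved in opposite directions.

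Whether a LINC locus changed differently from its neighbour was tested directly, with limma on the log2 ratio of the pair in each library, fitted over 4381 lncRNA loci. At an adjusted p under 0.05 the change differed at 18 of the 322 LINC loci (5.59%), against 2.44% of all the lncRNA loci in the fit. The LINC locus changed upward relative to its neighbour in 10 (3.11%, against 1.46%) and downward in 8 (2.48%, against 0.982%). Of the 18, 15 LINC loci were themselves called and 13 neighbours were not. Of the 18, 8 passed the count minimum through a single group, so a difference was built into their choice, and 10 did not. None of the 18 stayed called in all 6 omissions. The count was 2, 1 and 23 without normal glucose libraries 1, 2 and 3 and 0 without each high glucose library, where limma gave 82 to 89 LINC loci at an unadjusted p under 0.05, and no other tool was run on these ratios.

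LINC01134 and C1orf174 start 58 bases apart. C1orf174 was at 20.1, 21.1 and 26.1 CPM in normal and at 20.9, 19.2 and 23.2 CPM in high glucose, with overlapping groups and a log2 change of -0.09 (SE 0.151, edgeR adjusted p = 0.719). The change of LINC01134 minus that of C1orf174 was -2.67 (SE 0.325, limma adjusted p = 0.0236).

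The difference was -2.26 for LINC00106 and ASMTL (SE 0.328, limma adjusted p = 0.0272) and 2.89 for LINC01271 and CEBPB (SE 0.432, adjusted p = 0.0282). For LINC00563, which was not called itself (edgeR adjusted p = 0.156), and LRRC63, which rose, it was -4.28 (SE 0.554, limma adjusted p = 0.0238). LINC00467 differed from TRAF5, an adaptor gene of tumour necrosis factor receptors, by 2.17 (SE 0.412, adjusted p = 0.0491). With a prior count of 0.5 in place of 2, 8 LINC loci were called, and LINC01134, LINC00106, LINC01271 and LINC00563 were among them, while LINC00467 (limma adjusted p = 0.0677) was not. For LINC01833 and SIX3 the difference was -0.13 (SE 0.43, adjusted p = 0.898), for LINC01266 and CNTN6 -0.19 (SE 0.372, adjusted p = 0.81) and for LINC02709 and SWAP70 -0.49 (SE 0.354, adjusted p = 0.463).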

How the data were processed

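RNA of ARPE-19 cells was sequenced in 6 libraries, 3 per glucose condition. The authors deposited raw whole-number counts per locus, which they had not scaled, and FPKM values, which per the file headers adjust for locus length and depth. Bowtie 0.12.2 and a mouse build (mm8) are listed in the submitters' processing notes, but 319 of 320 LINC symbols that could be compared overlapped their human GRCh38.p14 position, so coordinates are printed as deposited. The labels' protocol names both poly(A) selection and fractions with or without poly(A), so which RNAs a lncRNA level covers is not settled. The counting tool and its use of strand are not given in the sources used here. Inside LINC01376, a plus-strand and a minus-strand assembled locus share the same coordinates (chr2:19089735-19096901). Their levels were nearly equal in each library, at 27.3, 25.4 and 15.1 CPM in normal glucose for both, so strands were not separated there. Counts of 4 were more frequent than 3 or 5 (9555, 4210 and 2659 values), so a fragment may stand for about 4 counts, and floors of 12 counts cover counting error only.

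Loci were filtered with filterByExpr and tested over the whole table for the glucose contrast by the 2-sided quasi-likelihood test of edgeR 4.0.16 (R 4.3.3) on TMM-scaled counts, with no covariate and with Benjamini-Hochberg adjustment over 25025 loci. SE is the log2 change divided by the square root of F. Differences from the nearest coding locus were tested with limma 3.58.1 (prior count 2). DESeq2 1.42.0 was an alternative. On simulated counts with changed lncRNA loci, edgeR called 24% of 4-fold and 64% of 16-fold changes in the right direction, with 5 false calls. The limma step called 20% and 72%, with 8 false calls. The simulation changed 100 loci by each fold, far fewer than the 4906 loci called in the data. The adjustment is stricter where fewer loci change, so these rates need not hold for the real fit. A locus that was not called may still have changed. The LINC loci and the gene lists were chosen with earlier results of these data known. Named loci are the 12 called with the largest change in each direction, the 8 with the highest FPKM, the list of 17, up to 8 called pairs per direction and the 6 lowest p of the difference test; others are marked. No pairing of libraries was assumed. No per-sample column was left unmapped. The neighbour of 1 LINC locus is not reported here.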

Additional observations from a re-analysis of the deposited data

How the results depend on the processing

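Against 60 called LINC loci (36 higher, 24 lower) and a median log2 change of 0.27, RLE and upper quartile scaling, no filter on low counts, a filter of 12 counts, no count minimum, loci with 1 name and a minimum log2 change of 1 gave 56 to 60 calls and medians of 0.26 to 0.3. DESeq2 called 93, 62 of them higher, of which 59 were among the 60. Limma on log2(FPKM + 0.1) called 52 higher and 17 lower with a median of 0.17, and on log2(FPKM + 1) 50 higher and 12 lower with a median of 0.03. 45 and 38 of those calls were among the 60. Counts divided by 4, chosen after the data were seen, gave 43 higher and 19 lower of 194 tested. With 1 library left out, calls ranged from 12 to 89 (7 to 56 higher, 5 to 33 lower), the median from 0.22 to 0.35, pairs called in the same direction from 0 to 25 (12 with all libraries) and called differences from 0 to 23 (18 with all). The cause was not tested, beyond fewer libraries. With the replicate number as a block, 27 were called (16 higher, 11 lower; 26 among the 60), with 4 pairs and 0 differences by limma (102 at an unadjusted p under 0.05). The labels share only a number. Over all tested loci, deviations of same-numbered libraries from their group means had correlations of -0.017 to -0.001. Such correlations over the whole table cannot show whether same-numbered libraries share a deviation at part of the loci. A prior count of 0.5 gave 8 differences. No called named locus changed sign. Of those not called, LINC00941 (0.12) was at -0.12 without normal glucose library 2, LINC00205 (0.18) at -0.24 and -0.39 without normal glucose library 3 and high glucose library 1, and LINC00857 (-0.01) at 0.06 to 0.16 without normal glucose library 2 or high glucose library 1 or 3. Depth limits loci under about 12 counts per library, the floor.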
